A study of Rattus norvegicus with 6 samples.

Results

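The ephrins, Eph receptors, slits, robos, netrins and netrin receptors were compared between Schwann cell precursors (SCPs) and repair Schwann cells (RSCs) of the rat. These genes were taken by their symbols alone, as every Efna, Efnb, Epha, Ephb, Slit, Robo, Ntn1 to Ntn5, Unc5, Dcc and Neo1 symbol in the tables, which gave 39 of 29468 symbols. They fall into 5 A-class and 3 B-class ephrins, 9 EphA and 5 EphB receptors, 3 slits, 4 robos, 4 netrins, 4 UNC5 receptors, and DCC with neogenin, which make up a class of 2. RNA-seq had been done on 3 SCP and 3 RSC samples, all from wild type LEWIS rats. SCPs, the embryonic glia from which Schwann cells arise, were untreated cells of the sciatic nerves and brachial plexus at embryonic day 14. RSCs, the Schwann cells of an injured nerve, came from sciatic nerves of rats aged 10 weeks, distal to a cut made 1 week earlier. Both were enzymatically dissociated, the adult nerves, per the study's methods, after mincing and with more collagenase for a longer time. The methods also describe a stay on uncoated flasks, meant to hold back fibroblasts and macrophages, after which the cells still afloat were used. The 3 samples of a group were separate preparations, with no statement on pooled animals. The methods give transgenic reporter rats as the source of grafted cells, whereas the labels give wild type animals for the sequenced ones, and for the adults they give an age range of which the labelled age is the upper end. The groups differ in age, nerve, injury and dissociation together, and these cannot be told apart.

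Ephrins are ligands held on the cell surface, the A class by a lipid anchor and the B class by a transmembrane segment, and they bind the Eph receptor tyrosine kinases of neighbouring cells. Contact of this kind commonly makes cells part from each other, and B-class ephrins also signal back into the cell that carries them. Slits are secreted proteins that repel axons and migrating cells through robo receptors. Netrins are laminin-related secreted proteins, which attract growth cones through DCC and neogenin and repel them through UNC5 receptors. In peripheral nerve these families are known for the paths that axons and Schwann cells take during development and for the sorting of Schwann cells from fibroblasts after a cut.

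The values are FPKM, fragments scaled to transcript length and to the number of mapped fragments, so that levels can be compared between genes. Each table held reference transcripts with a gene name and transcripts without one, which Cufflinks had assembled in that sample. The unnamed ones carried 26.1% to 31.9% of the FPKM in SCP samples and 18.6% to 23.4% in RSC samples. Of the 39 guidance genes 26 had unnamed transcripts at their locus in at least 1 sample. A named transcript could be listed at exactly 0 while an unnamed one of similar length at that locus was high. Neo1, for example, was listed at 0 in SCP sample 1, with an upper limit of 0.0411 FPKM in the interval that Cufflinks gave. Its reference transcript was 8558 bases long. Unnamed transcripts at the locus carried 38.1 FPKM in that sample, 16.2 FPKM on one of 8510 bases and 22.0 FPKM on a shorter one of 4092 bases. A value of 0 is therefore a listed value and not a measured absence. Values below are sums over named transcripts, and the sums with unnamed transcripts added to the gene they overlap stand beside them for guidance genes where they change a call or a direction.

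The labelled cell types were checked with marker genes. Sox10, a transcription factor of the Schwann lineage, was at 179, 175 and 181 FPKM in SCPs and at 149, 143 and 143 FPKM in RSCs, so that all 6 samples held abundant Schwann lineage RNA. The whole Schwann list summed to 501, 497 and 549 FPKM in SCPs and to 2518, 1983 and 2429 FPKM in RSCs, with Ngfr, a neurotrophin receptor, the most abundant. Of its 12 tested genes 3 were higher in SCPs and 6 in RSCs. S100b, a calcium-binding protein of mature Schwann cells, was low in SCPs at 3.21, 11.7 and 19.3 FPKM, against 924, 782 and 843 FPKM in RSCs.

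Markers of other cells were counted in the same way. At p under 0.01 in limma, 22.4% of all tested genes were higher in SCPs and 18.1% in RSCs. With unnamed transcripts added these shares were 34.2% and 23.2%. RSC samples carried leukocyte RNA, and 10 of 10 tested leukocyte markers were higher there, with sums of 13.9, 29.2 and 41.7 FPKM in SCPs and 2225, 2559 and 2671 FPKM in RSCs, chiefly Lyz2. Cd3e and S100a8 were listed at 0 in SCPs. The fibroblast and mesenchyme list summed to 705, 975 and 1055 FPKM in SCPs and to 5392, 8051 and 6795 FPKM in RSCs, with Dcn on top, and 7 of its 11 tested genes were higher in RSCs and 2 in SCPs. Tcf21 was listed at 0 in RSCs. SCP samples in turn carried erythroid RNA, which summed to 23679, 16683 and 74642 FPKM, nearly all of it globin with Hbe1 on top, against 2.26, 1.53 and 2.79 FPKM in RSCs, and 5 of 6 tested genes were higher in SCPs. Alas2 was listed at 0 in SCPs, and Hbz and Hbe1 were in RSCs. Skeletal muscle markers, with Actc1 the most abundant, summed to 66.4, 116 and 283 FPKM in SCPs and to 3.57, 2.92 and 8.15 FPKM in RSCs, and 7 of 8 tested were higher in SCPs. Myod1, Myf5 and Pax7 were listed at 0 in RSCs. The cartilage list had 1 tested gene, Col2a1, which was higher in SCPs, and summed to 59.3, 87.6 and 109 FPKM there and to 0.485, 1.02 and 0.331 FPKM in RSCs. Matn1 and Col9a1 were listed at 0 in RSCs. With unnamed transcripts the cartilage sums were 67.3, 95.6 and 114 FPKM in SCPs and 12.5, 16.4 and 13.5 FPKM in RSCs, and of 3 tested genes 2 were higher in SCPs and 1 in RSCs.

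Neuronal markers summed to 72.2, 46.6 and 56.5 FPKM in SCPs and to 35.8, 24.6 and 29.6 FPKM in RSCs, with Tubb3 on top, and 3 of 8 tested were higher in SCPs. Elavl4 and Isl1 were listed at 0 in RSCs. Endothelial markers, with Cldn5 on top and none listed at 0 throughout a group, summed to 57.6, 97.9 and 68.2 FPKM in SCPs and to 147, 148 and 138 FPKM in RSCs. Of 11 tested, 2 (18.2%) were higher in RSCs, near the 18.1% of all tested genes. Mural cell markers, chiefly Acta2, summed to 80.5, 275 and 159 FPKM in SCPs and to 211, 197 and 142 FPKM in RSCs, with 2 of 8 tested higher in RSCs and Rgs5 listed at 0 in RSCs. Perineurial markers, chiefly Slc2a1, summed to 37.6, 31.1 and 27.8 FPKM in SCPs and to 91.9, 141 and 151 FPKM in RSCs, with 3 of 5 tested higher in RSCs, 1 in SCPs, and Lypd2 listed at 0 in both. With unnamed transcripts the Schwann sums rose to 809, 803 and 905 FPKM in SCPs and 3972, 3292 and 3605 FPKM in RSCs. The perineurial sums in RSCs rose to 235, 272 and 292 FPKM and the mural sums to 138, 332 and 217 FPKM in SCPs and 338, 304 and 331 FPKM in RSCs. The counts higher in SCPs and in RSCs then became 3 and 9 of 13 for the Schwann list, 0 and 11 of 11 for leukocytes, 3 and 7 of 11 for fibroblasts, 6 and 0 of 7 for erythroid cells and 9 and 0 of 9 for skeletal muscle. They were 5 and 0 of 8 for neurons, 0 and 3 of 11 for endothelium, 2 and 4 of 9 for mural cells and 1 and 4 of 5 for perineurium. The part of these cells in the guidance gene results was not tested. In bulk samples, fewer cells of a type and less RNA per cell cannot be told apart.

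Most guidance genes that differed were higher in SCPs. Of the 39 genes, 27 reached a mean of 1 FPKM over the 6 samples and were tested, and 12 were not. Of those tested, 13 were higher in SCPs at an unadjusted p under 0.01 in limma (48.1%), 2 were higher in RSCs (7.41%), and 12 did not pass. Over all 13003 tested genes 40.5% passed, 22.4% with higher values in SCPs and 18.1% with higher values in RSCs. The median log2 fold change, RSC minus SCP, was -1.48 over the 27 guidance genes and -0.17 over all tested genes. Median-of-ratios scaling moved the latter to 0.02. Higher than 4-fold, a log2 difference over 2, were 8 genes in SCPs (29.6%), against 3.78% of all tested genes, and 1 gene in RSCs (3.70%), against 7.81%. Every SCP sample lay on 1 side of every RSC sample for 18 of the 27 genes (66.7%), and the same held for 58.6% of all tested genes. The mean filter favours genes that are high in 1 group. Group means reached 1 FPKM on both sides for 15 of the 27 genes, of which 8 passed limma's p under 0.01 towards SCPs and 0 towards RSCs. It was reached in SCPs alone by 10 genes and in RSCs alone by 2, Robo4 and Ntn4. The share called among all genes that reached 1 FPKM in both groups was not computed. The 8 of 15 genes therefore have no like share beside them.

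With unnamed transcripts added, 30 guidance genes were tested and 22 of them were higher in SCPs (73.3%), 2 in RSCs (6.67%) and 6 did not pass. Of the 22 genes 9 reached a mean of 1 FPKM in SCPs alone, where all 9 genes so admitted were called, and 13 were among the 19 genes that reached it in each group. All 13 SCP calls and both RSC calls made on named transcripts were kept in this form. For the 13 of 19 genes, too, no like share over all genes was computed. The share of all 14019 tested genes that passed rose as well, to 57.4%, with 34.2% higher in SCPs and 23.2% higher in RSCs. Over 4-fold higher in SCPs were 10 guidance genes (33.3%), against 4.58% of all genes, and over 4-fold higher in RSCs was again 1 (3.33%), against 8.57%. The groups did not overlap for 27 of the 30 genes (90.0%), beside 72.4% of all genes. The median log2 fold change was -1.77 over these 30 genes and -0.24 over all genes.

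**Figure D1:**
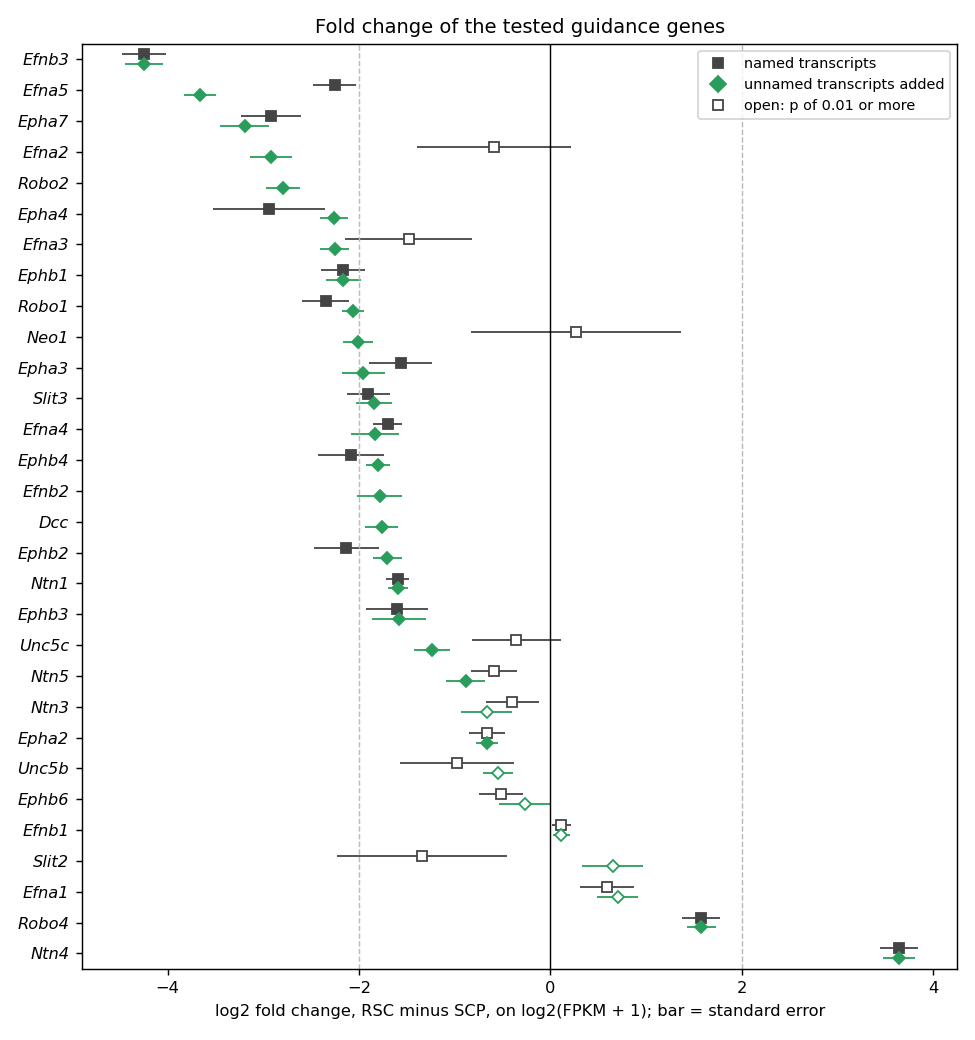
Fold change of each guidance gene tested in either form, as RSC minus SCP on log2(FPKM + 1), with the standard error as a bar; grey squares are named transcripts, green diamonds have unnamed transcripts added, filled marks passed p under 0.01 and dashed lines mark 4-fold. Ntn4 at 3.64 and Robo4 at 1.58 lie at the right end, Efnb3 at -4.25 lies at the left end, and Neo1 and Slit2 change sides of 0 between the forms.

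Among the A-class ephrins, Efna4 and Efna5 were higher in SCPs. Efna5 (chr9:110053843-110329880 on rn6), a lipid-anchored ligand known for topographic maps of axons, was at 4.41, 4.19 and 4.48 FPKM in SCPs and at 0, 0.0482 and 0.356 FPKM in RSCs. All 3 SCP samples lay far above every RSC sample, and the log2 fold change was -2.25 (SE 0.22, limma adjusted p = 0.00059 over all tested genes). Unnamed transcripts raised the SCP values to 13, 12.9 and 13.8 FPKM and left those of RSCs as they were, for a log2 fold change of -3.66.

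Efna4 (chr2:188655928-188660179), another lipid-anchored ligand, was the most abundant A-class ephrin in SCPs at 16.7, 21.5 and 18.6 FPKM, against 4.99, 4.76 and 5.60 FPKM in RSCs. The groups lay apart by 3.70-fold in their means (log2 fold change -1.70, SE 0.15, limma adjusted p = 0.00037). Efna1 (chr2:188588808-188597576), a ligand of EphA2, was the most abundant A-class ephrin in RSCs, at 9.46, 5.81 and 9.65 FPKM against 4.25, 7.23 and 4.15 FPKM in SCPs. The groups overlapped, and the log2 fold change of 0.59 (SE 0.29, 95% interval -0.11 to 1.29) did not pass. An unnamed transcript brought RSC sample 2 to 7.61 FPKM, so that the groups lay apart, and the log2 fold change of 0.70 (SE 0.22, 95% interval 0.18 to 1.22, limma adjusted p = 0.026) still missed the unadjusted threshold. Efna1 took up 15.1% of the A-class sum in SCPs and 55.3% in RSCs, as the mean of the shares in each sample, and 8.50% and 55.1% with unnamed transcripts.

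Efna2 and Efna3, the remaining A-class ligands, were listed at 0 in SCP sample 2 and did not pass on named transcripts. Efna2 (chr7:12382636-12393266) was at 7.89, 0 and 3.47 FPKM in SCPs and at 1.70, 0.779 and 1.45 FPKM in RSCs, a log2 fold change of -0.59 with an interval from -2.56 to 1.39. Each SCP sample held an unnamed Efna2 transcript, and with it the SCP values became 20.5, 14.5 and 14.2 FPKM, all above the unchanged RSC values (log2 fold change -2.92, SE 0.22, limma adjusted p = 6.1e-05). Efna3 (chr2:188636304-188645196) was at 4.12, 0 and 3.64 FPKM in SCPs and at 0, 0 and 0.0987 FPKM in RSCs. With the unnamed transcript of SCP sample 2 that sample stood at 4.01 FPKM, and the log2 fold change moved from -1.48 to -2.25 (SE 0.15, limma adjusted p = 3.9e-05).

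Of Efnb1 and Efnb3, both transmembrane ligands of EphB receptors, only Efnb3 passed. Efnb3 (chr10:56161432-56168815), a ligand at the midline of the developing central nervous system, was at 25.4, 20.6 and 16.3 FPKM in SCPs and at 0, 0.129 and 0.274 FPKM in RSCs. It had the lowest log2 fold change of the 27 tested guidance genes, -4.25 (SE 0.23, limma adjusted p = 6.9e-05), and no unnamed transcript changed its values. Efnb1 (chrX:68891227-68904034) was at 24.9, 25.8 and 26.1 FPKM in SCPs and at 28.5, 29.5 and 25.6 FPKM in RSCs. RSC sample 3 lay within the SCP range, and the log2 fold change of 0.12 had an interval from -0.12 to 0.35. Efnb1 made up 55.5% of the B-class sum in SCPs and 95.9% in RSCs, or 40.6% and 86.4% with unnamed transcripts.

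Efnb2 (chr16:86631151-86672050), the transmembrane ligand known for arterial endothelium, was listed at 0 in 5 samples and at 3.16 FPKM in RSC sample 3, and was not tested on its named transcript. Unnamed transcripts at the locus brought it to 16.9, 21.7 and 13.1 FPKM in SCPs and to 5.52, 4.18 and 3.16 FPKM in RSCs. The groups then lay apart, with a log2 fold change of -1.78 (SE 0.24, limma adjusted p = 0.00068). The reference transcript was 1158 bases long and the assembled ones in SCPs were 3108 to 7112 bases.

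**Figure D2:**
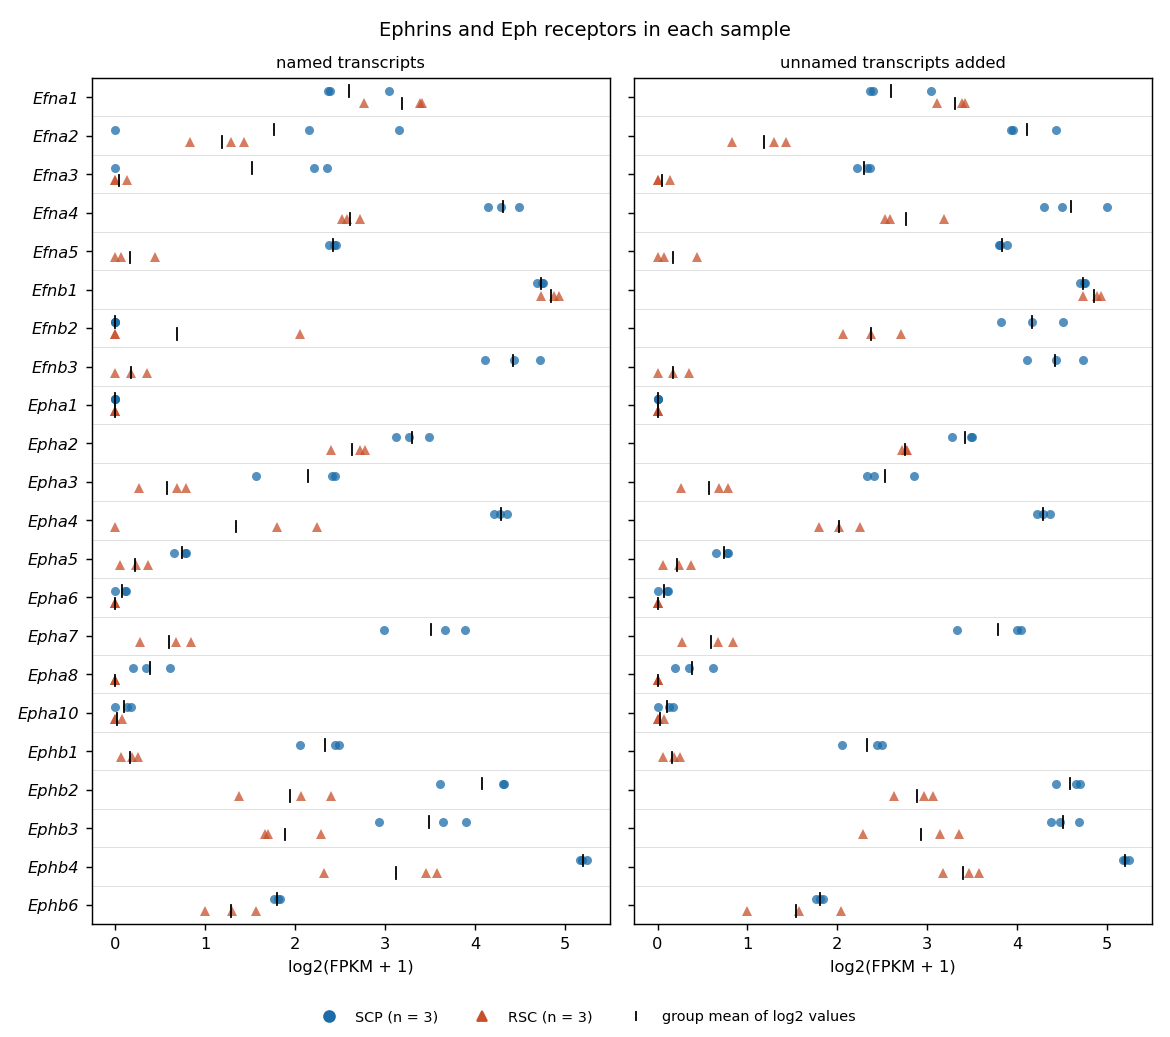
Level of each ephrin and Eph receptor, as log2(FPKM + 1), in the 3 SCP samples (blue circles) and 3 RSC samples (orange triangles), with group means as black ticks; named transcripts are at the left and unnamed ones are added at the right. SCP circles lie to the right of RSC triangles for most genes, Efnb1 overlaps, and Efnb2, Efna2 and Ephb3 shift to the right once unnamed transcripts are added.

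Of the 9 EphA receptors 4 were tested, and 3 of these were higher in SCPs and 0 in RSCs by limma at p under 0.01. Epha4 (chr9:83111222-83253481), a receptor that binds ephrins of both classes, was at 19.5, 17.6 and 18.5 FPKM in SCPs and at 3.75, 2.48 and 0 FPKM in RSCs. Every SCP sample exceeded every RSC sample, and the log2 fold change was -2.94 (SE 0.58, limma adjusted p = 0.0083). The call was lost in 3 alternatives, where limma's p was 0.0257 at a pseudocount of 0.1, 0.0106 without SCP sample 1 and 0.0105 without SCP sample 3. An unnamed transcript brought RSC sample 3 to 3.05 FPKM, and the log2 fold change was then -2.26 with an SE of 0.15.

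Epha7 (chr5:43602745-43761198), a receptor for A-class ephrins, was at 11.7, 13.8 and 6.91 FPKM in SCPs and at 0.208, 0.794 and 0.597 FPKM in RSCs. The lowest SCP sample, sample 3, was still well above all RSC samples, and the means differed 20.3-fold (log2 fold change -2.92, SE 0.31, limma adjusted p = 0.00078). Most of the signal in SCPs was listed on the 3208-base reference transcript, at 9.20, 9.97 and 6.22 FPKM, and less on the 6929-base form, at 2.51, 3.80 and 0.696 FPKM. Cufflinks gave the 3208-base form the status LOWDATA in every sample and the 6929-base form the status OK. The split between these forms is therefore given only as listed. Epha3 (chr11:421253-783038), a further A-class receptor, was at 1.97, 4.32 and 4.46 FPKM in SCPs and at 0.199, 0.726 and 0.607 FPKM in RSCs. The groups lay apart by a log2 fold change of -1.57 (SE 0.33, limma adjusted p = 0.011), but limma's p rose to 0.0143 without SCP sample 2, 0.0138 without SCP sample 3, 0.0126 without RSC sample 1 and 0.0105 without RSC sample 3.

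Epha2 (chr5:159845773-159874203), a receptor common in epithelia and a partner of ephrin-A1, was at 8.66, 10.3 and 7.70 FPKM in SCPs and at 5.86, 4.29 and 5.59 FPKM in RSCs. Its groups did not overlap, yet the log2 fold change of -0.66 (SE 0.19, limma adjusted p = 0.030) missed the unadjusted threshold. With unnamed transcripts it passed at the same log2 fold change of -0.66 (SE 0.12, limma adjusted p = 0.0026). Epha2 was the most abundant EphA receptor in RSCs and had 20.6% of the EphA sum in SCPs against 63.0% in RSCs. Epha1 was listed at 0 in all samples, and Epha10 and the brain receptors Epha5, Epha6 and Epha8 stayed below a mean of 1 FPKM in both groups.

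The EphB receptors, which bind the B-class ephrins, gave the highest summed level of the 9 classes in SCPs, and 4 of the 5 tested were higher in SCPs. Ephb4 (chr12:22393338-22418338), known as the venous partner of ephrin-B2, was the most abundant at 36.8, 35.6 and 35.0 FPKM in SCPs, against 10.9, 9.99 and 4.0 FPKM in RSCs. The SCP samples lay close together, RSC sample 3 was the lowest, and the log2 fold change was -2.08 (SE 0.34, limma adjusted p = 0.0040). An unnamed transcript brought RSC sample 3 to 8.03 FPKM, and the log2 fold change of -1.80 was then short of 4-fold, as it was at -1.69 without RSC sample 3.

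Ephb2 (chr5:155022847-155204434), the receptor that sorts Schwann cells when fibroblasts present ephrin-B, was at 18.9, 11.2 and 18.9 FPKM in SCPs and at 4.29, 3.17 and 1.6 FPKM in RSCs. The groups lay apart by 5.41-fold in their means (log2 fold change -2.13, SE 0.34, limma adjusted p = 0.0036). Unnamed transcripts raised the samples to 24.9, 20.5 and 24.2 FPKM and to 7.36, 6.82 and 5.18 FPKM, which left the direction and put the log2 fold change at -1.71, short of 4-fold. Without RSC sample 3 it was -1.85, also short of 4-fold.

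Ephb1 (chr8:110376954-110813000), a receptor for ephrin-B ligands in axon divergence, was at 4.62, 4.43 and 3.15 FPKM in SCPs and at 0.189, 0.0430 and 0.137 FPKM in RSCs. The means differed 33.1-fold with no overlap (log2 fold change -2.16, SE 0.23, limma adjusted p = 0.00075). Ephb3 (chr11:83527962-83546802), a receptor known in intestinal crypts, was at 6.62, 13.9 and 11.5 FPKM in SCPs and at 2.25, 2.18 and 3.88 FPKM in RSCs. Its log2 fold change was -1.60 (SE 0.32, limma adjusted p = 0.0088), and limma's p rose to 0.0101 without SCP sample 2, 0.0122 without SCP sample 3, 0.0116 without RSC sample 1 and 0.0117 without RSC sample 2. Unnamed transcripts brought Ephb3 to 21.3, 24.7 and 19.7 FPKM in SCPs and to 9.25, 7.84 and 3.88 FPKM in RSCs. The log2 fold change was then -1.58 (SE 0.28, limma adjusted p = 0.0026). Ephb6 (chr4:70903253-70918514), a receptor without kinase activity, did not pass, at 2.40, 2.50 and 2.57 FPKM in SCPs and at 1.46, 1.97 and 0.990 FPKM in RSCs.

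Ephb1, Ephb2 and Ephb4 were the EphB receptors over 4-fold higher in SCPs on named transcripts, so the 250 bases before their start sites are shown to allow a comparison of their promoters. With median-of-ratios scaling Ephb2 and Ephb4 fell short of 4-fold (-1.95 and -1.88 on the log2 scale). Ephb2 did so too, at -1.58, when only its most abundant transcript was kept. The sequences are from RefSeq on the GRCr8 build and are written on the strand of the gene, which is the minus strand for all 3. Capitals mark the letters ACAATG, the core of sites that SOX factors bind, searched on both strands.
Ephb1 (chr8:111823760-111824009): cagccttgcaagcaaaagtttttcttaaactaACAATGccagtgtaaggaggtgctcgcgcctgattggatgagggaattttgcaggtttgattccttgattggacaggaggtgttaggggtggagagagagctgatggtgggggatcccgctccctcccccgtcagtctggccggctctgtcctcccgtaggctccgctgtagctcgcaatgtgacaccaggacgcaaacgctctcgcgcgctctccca
Ephb2 (chr5:154360425-154360674): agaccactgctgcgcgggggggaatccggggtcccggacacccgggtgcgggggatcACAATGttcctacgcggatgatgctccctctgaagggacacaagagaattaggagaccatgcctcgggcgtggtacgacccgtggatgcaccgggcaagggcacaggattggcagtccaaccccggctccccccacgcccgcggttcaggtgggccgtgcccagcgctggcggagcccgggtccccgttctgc
Ephb4 (chr12:24988389-24988638): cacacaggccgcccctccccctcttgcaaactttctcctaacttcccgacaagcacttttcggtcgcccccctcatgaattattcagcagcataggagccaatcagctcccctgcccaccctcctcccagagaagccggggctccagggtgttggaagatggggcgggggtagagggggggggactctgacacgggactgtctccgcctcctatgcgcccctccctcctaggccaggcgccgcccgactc
The letters ACAATG occurred once in the Ephb1 window and once in the Ephb2 window, starting 218 and 193 bases before the start site, and not in the Ephb4 window. They were held by 11.1% of all 33469 promoter windows that RefSeq gave, and among the other guidance gene windows by that of Unc5b alone. TGANTCA, which AP-1 factors bind, GGAATG, which TEAD factors bind, and TATAAA, the TATA box, were in none of the 3 windows and in 6.34%, 12.1% and 12.9% of all windows, on either strand. The windows held 13, 22 and 12 CG dinucleotides, where the median was 16 over the 33 windows of the 32 guidance genes found there and 5 over all windows. Whether any of these letters act in SCPs was not tested.

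Slit3 was higher in SCPs, and the direction of Slit2 depended on which transcripts were counted. Slit3 (chr10:19924200-20521591), a secreted robo ligand, was the most abundant slit in both groups on named transcripts, at 19.9, 30.2 and 31.7 FPKM in SCPs and at 6.99, 7.23 and 5.18 FPKM in RSCs. The means differed 4.21-fold with no overlap (log2 fold change -1.90, SE 0.23, limma adjusted p = 0.0011), and with unnamed transcripts the log2 fold change was -1.85. With only its most abundant transcript kept, Slit3 passed 4-fold at -2.06.

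Slit2 (chr14:66831848-67170361), the slit best known for repelling axons, was listed at 5.57, 6.09 and 0 FPKM in SCPs and at 0, 1.88 and 0 FPKM in RSCs. Unnamed transcripts brought it to 6.89, 10.4 and 4.65 FPKM in SCPs and to 13.1, 14.6 and 7.93 FPKM in RSCs, so that it became the most abundant slit in RSCs. The groups still overlapped, since SCP sample 2 exceeded RSC sample 3, and neither the log2 fold change of -1.34 on named transcripts nor that of 0.65 (95% interval -0.11 to 1.41) with unnamed ones passed. In the second form Slit2 took up 17.9% of the slit sum in SCPs and 59.1% in RSCs, and Slit3 77.3% and 40.6%. Slit1 (chr1:260843481-260992366), the slit of the nervous system, was low at 1.22, 1.73 and 2.06 FPKM in SCPs and 0.0880, 0.040 and 0 FPKM in RSCs, and was not tested.

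The robos differed in composition between the groups. Robo1 (chr11:9209568-10145049), a slit receptor of axons, was at 11.1, 9.31 and 10.7 FPKM in SCPs and at 1.19, 0.730 and 1.92 FPKM in RSCs. The lowest SCP sample was above the highest RSC sample, and the means differed 8.09-fold (log2 fold change -2.35, SE 0.25, limma adjusted p = 0.00072). With only its most abundant transcript kept, Robo1 had a log2 fold change of -1.77, short of 4-fold. Robo2 (chr11:11062866-11585529), its close relative, was listed at 0 in all samples on its 4 named transcripts. Unnamed transcripts at the locus, of 4348 to 9338 bases in SCPs, summed to 8.48, 11.4 and 7.93 FPKM in SCPs and to 0.325, 0.543 and 0.529 FPKM in RSCs. Counted in that way Robo2 was 19.9-fold higher in SCPs, with no overlap (log2 fold change -2.80, SE 0.18, limma adjusted p = 3.1e-05).

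Robo4 (chr8:39082701-39093341), the robo of endothelial cells, went the other way, at 0.956, 0.851 and 1.02 FPKM in SCPs and 5.43, 4.94 and 4.09 FPKM in RSCs. All RSC samples exceeded all SCP samples, by 5.12-fold in the means (log2 fold change 1.58, SE 0.20, limma adjusted p = 0.0014), and no unnamed transcript changed its values. Of the endothelial markers 18.2% were higher in RSCs and 0 in SCPs, beside 18.1% of all tested genes higher in RSCs. With unnamed transcripts 27.3% were higher in RSCs, beside 23.2% of all genes. On named transcripts the list summed to 57.6, 97.9 and 68.2 FPKM in SCPs and to 147, 148 and 138 FPKM in RSCs. Its median log2 fold change was 0.67. Cldn5, a tight junction protein, was at 7.98, 15.2 and 10.3 FPKM in SCPs and at 40.0, 47.1 and 40.5 FPKM in RSCs, and Esam, an adhesion molecule, had a log2 fold change of 1.46, whereas the other 9 tested markers of that list did not pass. Kdr, the main VEGF receptor of endothelium, was at 4.60, 6.85 and 3.6 FPKM in SCPs and at 5.21, 3.36 and 4.06 FPKM in RSCs, and the part of endothelial RNA in the Robo4 result was not tested. Robo1 took up 91.4% of the robo sum in SCPs and 20.2% in RSCs on named transcripts, and Robo4 8.31% and 76.6%. These shares rest on Robo2 being listed at 0. With unnamed transcripts Robo1 had 52.1% and 25.7%, Robo2 43.3% and 6.37%, and Robo4 4.48% and 65.1%. Robo3, the robo of commissural axons, stayed at or under 0.284 FPKM in every sample.

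The netrins had like sums in both groups and a different main member in each. Ntn1 (chr10:54761925-54982039), the classical secreted guidance netrin, was at 24.7, 29.0 and 25.7 FPKM in SCPs and at 7.87, 7.77 and 8.60 FPKM in RSCs. The means differed 3.28-fold with no overlap (log2 fold change -1.60, SE 0.12, limma adjusted p = 0.00021). Ntn4 (chr7:34533543-34649330), a netrin of basement membranes that binds laminin, was at 0.455, 0.850 and 0.959 FPKM in SCPs and at 19.4, 23.6 and 19.4 FPKM in RSCs. The means differed 27.6-fold, and on the log2(FPKM + 1) scale it was the 1 guidance gene past 4-fold in RSCs (log2 fold change 3.64, SE 0.20, limma adjusted p = 6.7e-05). At a pseudocount of 0.1 Robo4 passed 4-fold as well, with a log2 fold change of 2.23. The highest upper limit of the Cufflinks intervals in SCPs was 1.47 FPKM and the lowest lower limit in RSCs was 15.4 FPKM.

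The netrin sum was 32.4 ± 3.34 FPKM (SD, n = 3) in SCPs and 32.0 ± 2.19 FPKM (SD, n = 3) in RSCs. Ntn1 had 82.0% of it in SCPs and 25.4% in RSCs, and Ntn4 had 2.34% and 64.9%. With median-of-ratios scaling the netrin sums were 29.5 FPKM in SCPs and 33.9 FPKM in RSCs. Of the fibroblast and perineurial markers 7 of 11 and 3 of 5 tested were higher in RSCs, and 2 and 1 in SCPs, and their part in the Ntn4 result was not tested. Ntn3 (chr10:13577725-13582376) and Ntn5 (chr1:101667693-101678112), minor netrins, were at 1.90 to 4.88 FPKM and 0.574 to 1.94 FPKM over the samples. Neither passed on named transcripts, and with unnamed ones Ntn5 did, at 1.94, 1.45 and 2.82 FPKM in SCPs and 0.574, 0.623 and 0.710 FPKM in RSCs (log2 fold change -0.89, SE 0.21, limma adjusted p = 0.0086).

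The promoter of Ntn4 is shown because it had the highest fold change towards RSCs of the tested guidance genes, a choice made after its values were seen. The window is the 250 bases before the start site, on the plus strand of GRCr8, from RefSeq.
Ntn4 (chr7:30073387-30073636): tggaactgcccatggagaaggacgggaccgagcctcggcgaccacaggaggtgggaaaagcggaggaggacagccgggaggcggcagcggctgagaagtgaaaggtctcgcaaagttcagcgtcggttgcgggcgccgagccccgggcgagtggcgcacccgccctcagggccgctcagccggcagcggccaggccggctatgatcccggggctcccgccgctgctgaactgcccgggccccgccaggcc
None of the 4 motifs searched above occurred in it, so it holds no capitals. It had 27 CG dinucleotides and 72.4% G and C, against 56.4%, 68.4% and 64.4% in the Ephb1, Ephb2 and Ephb4 windows.

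Among the netrin receptors Neo1 showed how far the count of transcripts mattered. Neo1 (chr8:63649871-63756394), or neogenin, a receptor for netrins and for repulsive guidance molecules, was listed at 0, 0 and 8.54 FPKM in SCPs and at 4.73, 0 and 1.92 FPKM in RSCs. The groups overlapped and the log2 fold change of 0.27 had an interval from -2.42 to 2.96, while the mean FPKM was 2.85 in SCPs and 2.22 in RSCs. Unnamed transcripts gave 38.1, 26.4 and 35.8 FPKM in SCPs and 8.05, 7.01 and 7.31 FPKM in RSCs. On these values Neo1 was 4.48-fold higher in SCPs with no overlap (log2 fold change -2.01, SE 0.16, limma adjusted p = 6.6e-05). The sums of SCP samples 1 and 3 include 22.0 and 21.1 FPKM on assemblies of 4092 and 2558 bases, shorter than the 8558-base reference. In SCP sample 2, at 26.4 FPKM, the unnamed Neo1 transcripts were 8262 to 8525 bases long. Dcc (chr18:66518213-67629801), the netrin receptor of commissural axons, was untested at 1.5, 1.77 and 0.275 FPKM in SCPs and 0, 0.0402 and 0 FPKM in RSCs. With unnamed transcripts it reached 2.69, 2.67 and 2.01 FPKM in SCPs, unchanged in RSCs, and passed (log2 fold change -1.76, SE 0.17, limma adjusted p = 0.00017).

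Of the UNC5 receptors, which mediate repulsion by netrins, none of the 2 tested on named transcripts passed in limma at p under 0.01. Unc5b (chr20:30339680-30406590), known in vessels, was at 1.57, 6.44 and 1.43 FPKM in SCPs and at 0, 1.70 and 1.27 FPKM in RSCs. Its groups overlapped (log2 fold change -0.97, limma adjusted p = 0.23), and with unnamed transcripts they lay apart at 4.95, 6.44 and 4.70 FPKM against 3.70, 3.01 and 3.29 FPKM, with a log2 fold change of -0.55 that missed the unadjusted threshold (limma adjusted p = 0.020). Unc5c (chr2:247045813-247397483), a receptor of migrating neurons, was at 0.794, 0.996 and 1.67 FPKM in SCPs and at 0, 0.501 and 2.05 FPKM in RSCs. Unnamed transcripts brought it to 6.30, 5.34 and 4.23 FPKM in SCPs and to 1.32, 1.62 and 2.05 FPKM in RSCs, where it passed (log2 fold change -1.23, SE 0.19, limma adjusted p = 0.0013). Unc5a and Unc5d, both neuronal, stayed below a mean of 1 FPKM in each group in either form.

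**Figure D3:**
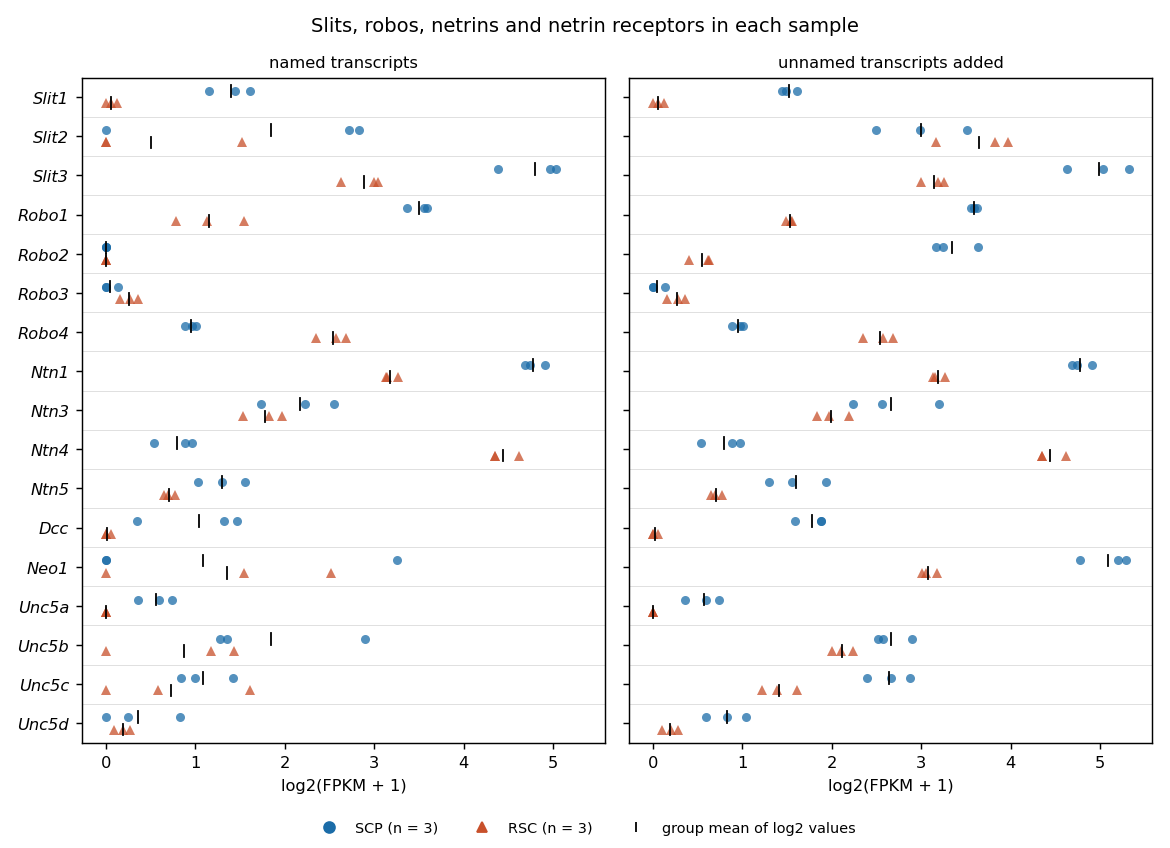
Level of each slit, robo, netrin and netrin receptor, as log2(FPKM + 1), in the 3 SCP samples (blue circles) and 3 RSC samples (orange triangles), with group means as black ticks; named transcripts are at the left and unnamed ones are added at the right. Ntn4 and Robo4 are the genes with RSC triangles far to the right of SCP circles, and Robo2 and Neo1 separate at the right panel only.

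Summed over named transcripts, the EphB receptors stood at 69.4 ± 1.74 FPKM (SD, n = 3) in SCPs and 15.7 ± 4.48 FPKM in RSCs, a ratio of 4.42, and the EphA receptors at 42.9 ± 4.13 and 8.55 ± 1.73 FPKM, a ratio of 5.02. Slits stood at 32.8 ± 5.73 and 7.14 ± 1.99 FPKM, a ratio of 4.60. The ligands of Eph receptors differed less, with A-class ephrins at 34.9 ± 2.27 and 14.9 ± 3.07 FPKM, a ratio of 2.34, and B-class ephrins at 46.4 ± 3.98 and 29.1 ± 0.588 FPKM, a ratio of 1.6. Robos were at 11.3 ± 0.946 and 6.31 ± 0.523 FPKM. With unnamed transcripts the ratios were 3.47 for EphB, 4.70 for EphA, 2.05 for slits, 3.82 for A-class ephrins, 1.97 for B-class ephrins, 2.88 for robos, 1.07 for netrins, 2.32 for UNC5 receptors and 4.80 for DCC with neogenin. The last 2 were 2.58 and 1.80 on named transcripts. The slit ratio thus fell and the A-class ratio rose, and their order among the classes changed with the transcripts counted.

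**Figure D4:**
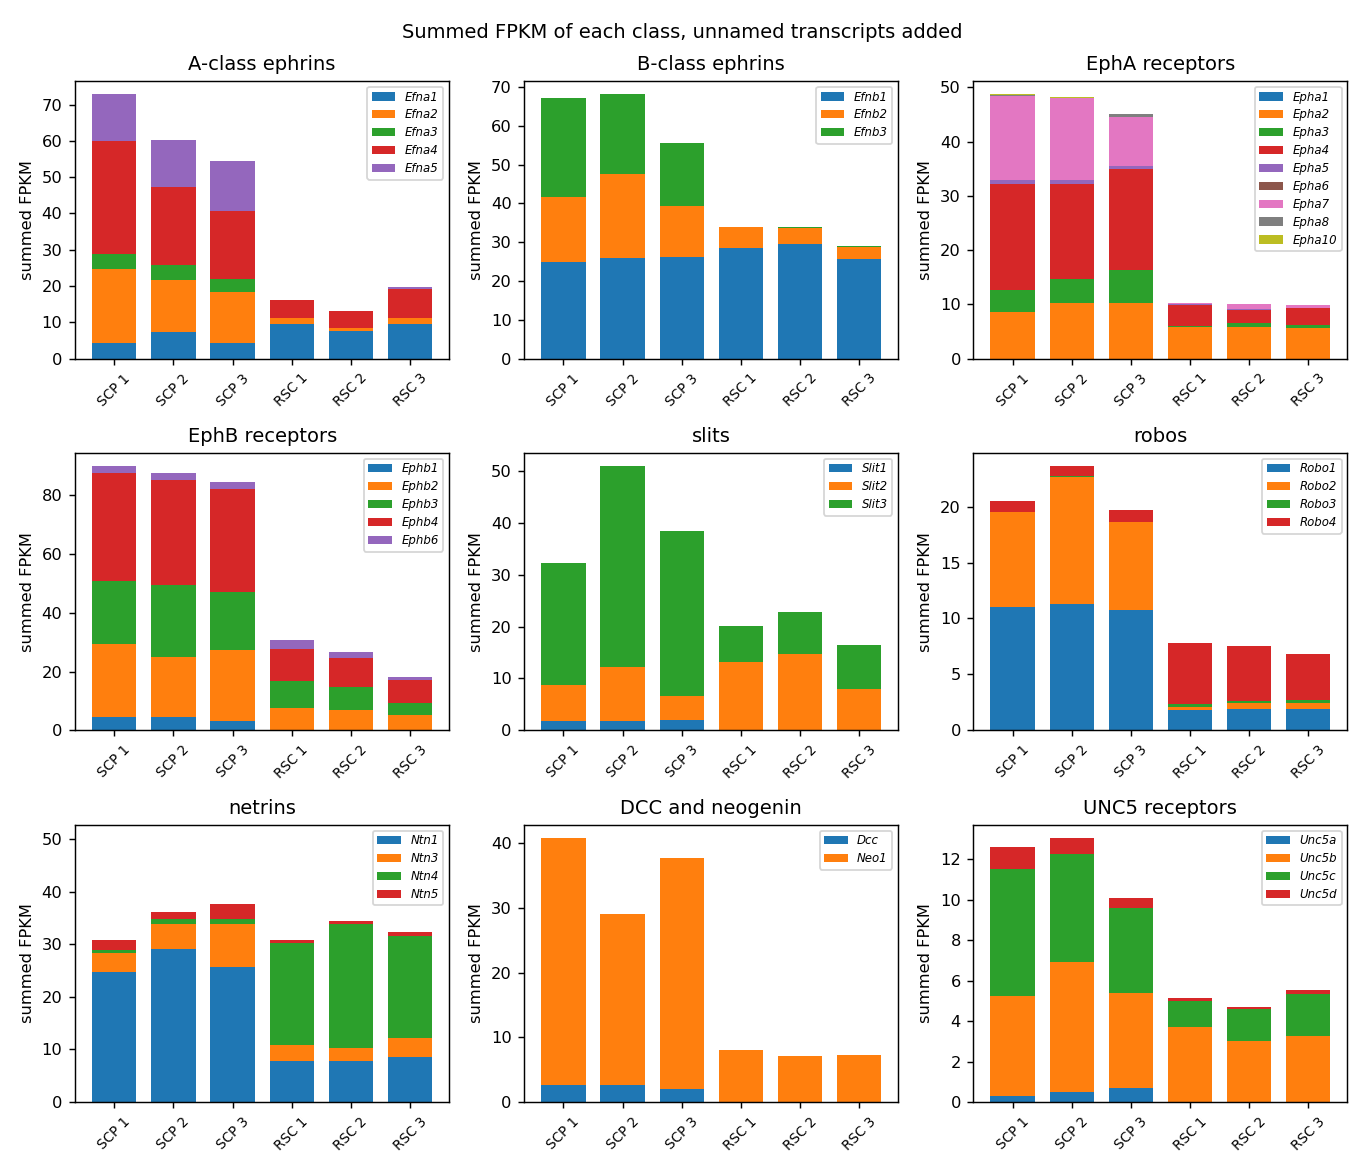
Summed FPKM of each class in each sample, with unnamed transcripts added and each gene in its own colour, on linear axes that start at 0. The netrin bars are of like height in both groups (34.9 FPKM in SCPs and 32.5 FPKM in RSCs on average), with Ntn1 the largest part in SCPs and Ntn4 in RSCs. In the robos, Robo1 and Robo2 hold most of the SCP bars and Robo4 most of the RSC bars.

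Ranked by level with unnamed transcripts added, the 5 most abundant guidance genes in SCPs were Ephb4 at a mean of 35.8 FPKM, Neo1 at 33.4, Slit3 at 31.4, Ntn1 at 26.5 and Efnb1 at 25.6 FPKM. Neighbours in this order overlapped in their SCP samples. In RSCs the order was Efnb1 at 27.9 FPKM, Ntn4 at 20.8, Slit2 at 11.9, Ephb4 at 9.64 and Efna1 at 8.91 FPKM. Efnb1 and Ntn4 did not overlap there, nor did Ntn4 and Slit2, whereas Slit2, Ephb4 and Efna1 did. Efnb1 and Ephb4 were in both lists of 5.

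Some listed partners of these receptors were higher in SCPs and some in RSCs. Of 44 listed effectors of Eph and ephrin signalling 39 were tested, and 8 were higher in SCPs and 4 in RSCs at p under 0.01 in limma, with a median log2 fold change of -0.20. These shares, 20.5% and 10.3%, were below the 22.4% and 18.1% of all tested genes. Grb10, an adaptor that binds receptor tyrosine kinases, fell furthest, from 451, 465 and 405 FPKM in SCPs to 7.58, 7.49 and 8.49 FPKM in RSCs (log2 fold change -5.64, SE 0.09, limma adjusted p = 4.9e-06). Rasa1, a Ras GTPase-activating protein, was at 11.5, 5.36 and 13.9 FPKM against 0, 3.51 and 0 FPKM, and its log2 fold change of -2.68 shrank to -0.58 with unnamed transcripts. Higher in RSCs were Lyn, a Src family kinase of leukocytes among others, at a log2 fold change of 2.24, and Fyn, a Src family kinase of glia and neurons, at 0.69 (1.10 with unnamed transcripts). The leukocyte markers moved in the same direction as Lyn, and their part in it was not tested.

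Of 29 listed partners of slits and robos 25 were tested, 9 of them higher in SCPs and 5 in RSCs, with a median log2 fold change of -0.35. The shares were 36.0% and 20%, beside 22.4% and 18.1% of all tested genes. Cdh2, or N-cadherin, which slit signalling can loosen, was at 94.0, 82.2 and 77.1 FPKM in SCPs and at 3.45, 2.32 and 2.46 FPKM in RSCs. That difference, with no overlap, was a log2 fold change of -4.52 (SE 0.16, limma adjusted p = 2.5e-05). Lrig3, a membrane protein linked to netrin in inner ear development, followed at -3.31 (-2.55 with unnamed transcripts). Gpc1, the heparan sulfate proteoglycan that binds slits, was higher in RSCs at 449, 370 and 392 FPKM against 97.5, 99.4 and 101 FPKM (log2 fold change 2.01, SE 0.09, limma adjusted p = 3.8e-05). Cxcr4, a chemokine receptor whose signalling slits can dampen, had a log2 fold change of 2.45. Leukocyte markers were higher in RSCs as well, and their part in the Cxcr4 result was not tested.

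Of 35 listed partners of netrins, DCC, neogenin and UNC5 receptors 26 were tested, 4 of them higher in SCPs and 4 in RSCs, with a median log2 fold change of -0.05. The share of 15.4% each way was below that of all tested genes in both directions. Myo10, a myosin of filopodia that carries DCC, was higher in SCPs at 33.0, 23.1 and 17.9 FPKM against 2.38, 2.47 and 0 FPKM, and its log2 fold change of -3.46 shrank to -1.0 with unnamed transcripts. Rgmb, a neogenin ligand of the repulsive guidance family, was also higher in SCPs, at a log2 fold change of -1.71. In RSCs Ntng2, a lipid-anchored netrin relative that does not bind DCC, rose from 0.0911, 0.255 and 0.288 FPKM to 7.67, 13.4 and 14.1 FPKM (log2 fold change 3.35, SE 0.28, limma adjusted p = 0.00030), and the log2 fold change was 5.06 with unnamed transcripts. Siah2, a ubiquitin ligase of the family that degrades DCC, had a log2 fold change of 1.48. With unnamed transcripts added, the counts higher in SCPs and RSCs became 12 and 6 of 42 for the Eph effectors, 13 and 6 of 28 for the slit and robo partners, and 8 and 7 of 29 for the netrin partners. The first of each pair was 28.6%, 46.4% and 27.6% and the second 14.3%, 21.4% and 24.1%, beside 34.2% and 23.2% of all genes.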

How the data were processed

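RNA of 3 SCP and 3 RSC samples was sequenced, per the study's methods, from TruSeq mRNA libraries with paired-end reads and mapped to rn6. The submitters' processing notes name FastQC 0.11.2, TopHat2 2.1.0 and Cufflinks 2.2.1. The authors deposited 1 Cufflinks table per sample with the FPKM of each transcript, its interval and its coverage. The authors' Cuffdiff output was not used. How Cufflinks used strand and divided reads between similar genes is not given in the sources used here, and absolute depth is unknown. Relative depth, the median ratio of the deposited coverage (signal) to FPKM scaled to the highest sample, was 0.878 to 1.00 in SCPs and 0.789 to 0.841 in RSCs, so precision rests on the 3 samples per group. Per the study, each group was prepared in 3 sets, and whether these came from separate animals is not stated, so p-values measure the spread between preparations.

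Transcripts whose names had become dates, 77 per sample, were left out. FPKM of named transcripts were summed by symbol. For the test, limma 3.58.1 (R 4.3.3) was fitted to log2(FPKM + 1) with a variance trend over 13003 symbols with a mean of at least 1 FPKM. Fold changes on this scale understate those of low genes. Tests were two-sided, a gene was called at p under 0.01 before adjustment, as 4-fold also at a log2 difference over 2, and the Benjamini-Hochberg adjustment ran over the whole set of tested genes. Unnamed transcripts were added, as an alternative, to the named gene of the same locus that they overlap most. Other alternatives were the pseudocount, the mean filter, scaling, the variance trend, the replicate block, the highest transcript per symbol, an adjusted threshold and each sample left out. The scripts were tested on simulated data.

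Members and lists were chosen with earlier results of these data known. Among the 39 guidance genes, values per sample are given for those past both thresholds, for the most abundant of each class and for those whose call an alternative ends or turns; of each pathway list the 2 largest changes each way among genes at p under 0.01 on named transcripts are named. Positions are those of the tables on rn6, counted from 1. Promoter sequences are from RefSeq on GRCr8, where 32 of the 39 symbols were found. Some marker genes are not reported here.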

Additional observations from a re-analysis of the deposited data

Results flagged for a closer look

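Signal outside the named transcripts was present for 2 guidance genes whose named transcripts were listed at 0 in every SCP sample. At Efnb2 the unnamed transcripts had a mean of 17.2 FPKM over the SCP samples, and at Robo2 a mean of 9.26 FPKM. RSC samples had 5.52 and 4.18 FPKM of unnamed Efnb2 transcripts in samples 1 and 2, and 0.325 to 0.543 FPKM of unnamed Robo2 transcripts. No group had enough samples for a test of single outlying samples.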

How the results depend on the processing

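With unnamed transcripts added, the guidance genes higher in SCPs rose from 13 to 22 and all genes with p under 0.01 from 5268 to 8040, while 14019 instead of 13003 genes were tested. The log2 fold change of Neo1 turned from 0.27 to -2.01, although its mean FPKM on named transcripts was already higher in SCPs, and that of Slit2 from -1.34 to 0.65. The summed FPKM in SCPs and RSCs moved to 47.4 in SCPs for EphA, 87.5 and 25.2 for EphB, 62.5 in SCPs for A-class ephrins, 63.6 and 32.3 for B-class ephrins, 40.5 and 19.8 for slits, 21.3 and 7.38 for robos, 11.9 and 5.14 for UNC5 receptors, and 35.9 and 7.47 for DCC with neogenin. Median-of-ratios scaling moved the SCP sums of EphB to 63.5, A-class ephrins to 31.9, B-class ephrins to 42.3 and robos to 10.4, and the RSC sum of B-class ephrins to 30.8. A pseudocount of 0.1 gave 2 guidance genes over 4-fold higher in RSCs, and a mean of at least 5 FPKM left 1 higher in RSCs at p under 0.01, with fewer genes tested. The cause of the other changes was not tested.

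Over the 6 fits that each left out 1 sample, 10 to 13 guidance genes were higher in SCPs and 2 in RSCs, and 6 to 9 were over 4-fold higher in SCPs and 1 in RSCs. The log2 fold change of Efna2 ran from -1.47 to 0.11, that of Neo1 from -0.31 to 1.36 and that of Unc5c from -0.48 to 0.0122, none of which passed on named transcripts in the fit of all samples. Slit2 ran from -2.26 to -0.85, and Efna3 reached -2.24 and passed without SCP sample 2. The deviations of samples of the same number had correlations of 0.04, -0.005 and 0.03. With 3 samples per group these values cannot settle whether the numbers pair the samples, and no source states that they do. The fit with the replicate block gave the same counts, 13, 2, 8 and 1, for guidance genes and 4275 for all genes. An adjusted p under 0.05 gave 14 and 2.

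The tables hold no counts, so no counting error or detection limit was computed. The Cufflinks intervals of single transcripts do not cover the assignment of reads to unnamed transcripts, as the listed 0 of Neo1 shows. Exact zeros on named transcripts enter the fits as deposited. Named transcripts with the Cufflinks status LOWDATA, 7161 to 7848 per sample, were used as deposited too. They include reference transcripts of Efna5, Ntn1, Slit3, Robo1 and Robo4.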
